A study of Mus musculus with 12 samples.

Results

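S100 proteins are small calcium-binding proteins of the EF-hand family, and 10 of their genes were followed in the left ventricle of adult mice that had lost the cardiac transcription factor Nkx2-5 from trabecular myocardium before birth. The genes were S100a1, S100a4, S100a6, S100a8, S100a9, S100a10, S100a11, S100a13, S100a16 and S100b, and a probe belonged to one of them when the array's design gave it that gene name. All 10 genes were on the array, with 13 of its 55681 probes, and all 10 had a probe among the 24593 whose signal cleared the background clearly on 3 or more of the 4 arrays in any group. These probes carry 18021 distinct gene names, counted here as genes, some of which are only probe identifiers or genomic intervals. The main tests between groups were run over all of these probes.

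RNA came from the left ventricular wall and apex, without the septum, of 12 mice aged 6 months, 1 mouse per array and 4 per group, and each array measured the intensity of a single dye. For the Nkx2-5ΔTrbE10 group (TrbE10), pregnant females had been injected with tamoxifen on E10.5 and again on E11.5, while trabeculae form. For the Nkx2-5ΔTrbE14 group (TrbE14) this was done on E13.5 and E14.5, while trabeculae compact. Mice of both mutant groups carried the floxed Nkx2-5-ΔNeo allele together with Cx40-creERT2, an inducible Cre recombinase that is expressed from the Cx40 (Gja5) locus. The study's methods describe the controls as littermates of the genotype Nkx2-5-ΔNeo fl/fl:Cx40+/+, whereas the sample labels call them not injected, so whether they had been exposed to tamoxifen cannot be told from these sources. Pups of treated mothers were born by caesarean section, with CD1 mice as nurses. Because Cre is made only in cells that use the Cx40 promoter, the left ventricle of a mutant is a mixture of deleted and undeleted cells. In such bulk tissue, a change in the number of cells of a type and a change in RNA per cell cannot be told apart.

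When calcium binds, most S100 dimers open a cleft that grips a target protein, which can be an ion channel, an annexin, a myosin or a kinase. Several S100 proteins also leave the cell and act on receptors such as RAGE (Ager) and Tlr4 as alarm signals. In the heart, S100A1 is the form of the working muscle cell and supports calcium release and reuptake, whereas other members are better known from fibroblasts, glia and leukocytes.

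No array stood apart, with correlations between arrays from 0.968 to 0.99. Nkx2-5 itself fell to 0.635 of control in TrbE10 hearts (limma, log2 difference -0.66, adjusted p = 0.0459). In TrbE14 hearts it stood at a fold of 0.663 (log2 difference -0.59, adjusted p = 0.106). The mutant and control hearts did not overlap in either comparison. The 10 cardiomyocyte markers were all measured and 0 called by limma or SAM (1 in each mutant at an unadjusted p under 0.05), with summed signals of 1369000 to 1449000 in control, 1444000 to 1495000 in TrbE10 and 1355000 to 1454000 in TrbE14 hearts. By Y-linked signal, 1 control, 2 TrbE10 and 3 TrbE14 mice were male. Control and TrbE14 arrays shared 1 slide, whereas the TrbE10 arrays had a slide to themselves. Slide and genotype group therefore cannot be told apart for TrbE10, and TrbE14 was compared with control within 1 slide.

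S100a4 was the S100 gene that passed the test, being higher in TrbE14 than in control hearts. In this comparison 1 of 10 genes had a probe at an adjusted p under 0.05, against 0.760% of all genes (0.583% called as higher). In TrbE10 hearts limma called 0 of 10, against 2.15% of all genes (1.36% called as higher). SAM called 0 of 10 as well, and 483 over all genes. At an unadjusted p under 0.05, S100a1, S100a4 and S100a6 passed in both mutants, which is 3 of 10 beside 16.8% of all genes in TrbE10 and 13.9% in TrbE14 hearts. The median log2 difference of the 10 genes was 0.14 in TrbE10 and 0.25 in TrbE14 hearts, where the median of all genes was -0.025 and -0.031. Both comparisons use the same 4 control hearts.

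**Figure D1:**
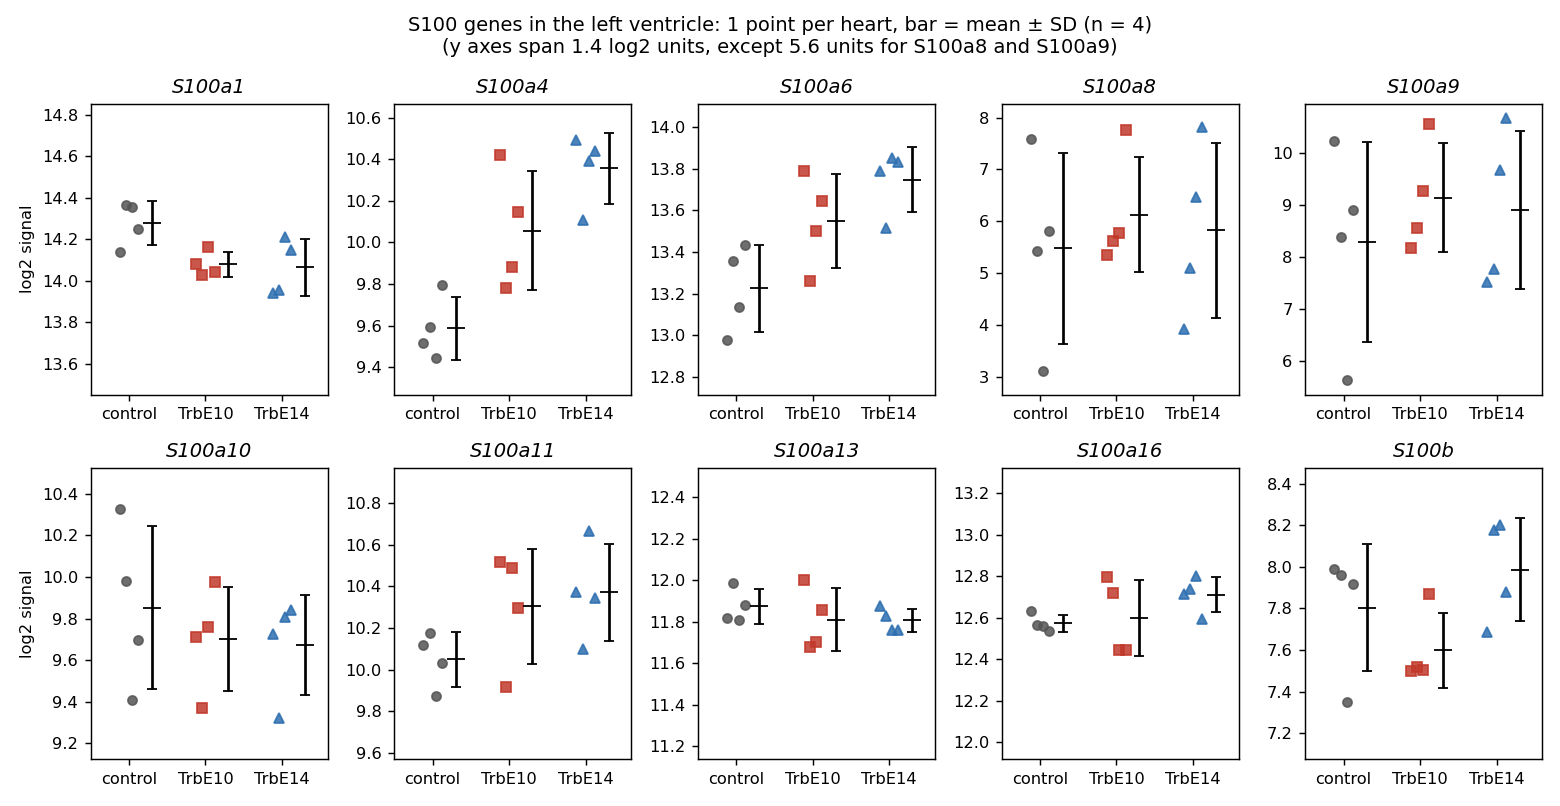
Log2 signal of the brightest probe of each S100 gene in every heart, by group, with the group mean and SD (n = 4). The y axes of S100a8 and S100a9 span a wider range than the others, which share one span. All 4 TrbE14 hearts lie above all 4 control hearts for S100a4 and S100a6, and S100a8 and S100a9 range widely in every group.

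S100a4, also known as fibroblast-specific protein 1, binds non-muscle myosin and is made by fibroblasts and by several kinds of leukocyte. Its log2 signal was 9.51, 9.59, 9.44 and 9.79 in the control hearts, 10.42, 9.78, 9.88 and 10.15 in the TrbE10 hearts, and 10.49, 10.11, 10.39 and 10.44 in the TrbE14 hearts. Every TrbE14 heart was above every control heart, whereas the lowest TrbE10 heart lay just below the highest control heart. The group means were 9.59 ± 0.15, 10.06 ± 0.29 and 10.36 ± 0.17 (SD, n = 4). S100a4 was thus 1.71-fold higher in TrbE14 than in control hearts (log2 difference 0.77 ± 0.15 SE, limma adjusted p = 0.0450). The exact two-sided permutation test gave p = 0.0286, which is the smallest that 4 arrays against 4 allow. In TrbE10 hearts the fold was 1.39 (log2 difference 0.47 ± 0.15 SE, adjusted p = 0.139), and the arrays of the groups overlapped.

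Another S100a4 probe gave log2 differences of 0.46 ± 0.16 (SE) in TrbE10 (adjusted p = 0.190) and, for TrbE14, 0.69 ± 0.16 (adjusted p = 0.0992). On this probe neither mutant group overlapped the control hearts. Its adjusted p in TrbE14 hearts was 0.0537 with normexp background correction and 0.196 with no filter on dim probes.

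The S100a4 call was close to its threshold. When no filter was set on dim probes, the adjusted p was 0.0989. It was 0.105, 0.102, 0.123 and 0.0645 without control replicates 1, 2, 3 and 4, and 0.0528 and 0.0650 without TrbE10 replicates 3 and 4. Leaving out TrbE14 replicates 1, 2, 3 and 4 gave 0.105, 0.0504, 0.112 and 0.116. Without TrbE10 replicates 1 and 2 the adjusted p was 0.0243 and 0.0345. The log2 difference itself ranged from 0.72 to 0.85 over these 12 fits.

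Both S100a4 and its neighbour S100a6 on chromosome 3 varied between hearts within groups, and their promoters are shown because they varied together. They are the 250 bases before each RefSeq start (build GRCm38.p6), 5′ to 3′, and capitals mark matches to the TATA box letters TATAAA.
S100a4, chr3:90603520-90603769, plus strand: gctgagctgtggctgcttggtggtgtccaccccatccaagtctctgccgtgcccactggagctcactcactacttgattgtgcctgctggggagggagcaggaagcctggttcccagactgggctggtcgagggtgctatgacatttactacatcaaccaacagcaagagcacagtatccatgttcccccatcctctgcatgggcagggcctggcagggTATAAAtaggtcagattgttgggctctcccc
S100a6, chr3:90612644-90612893, plus strand: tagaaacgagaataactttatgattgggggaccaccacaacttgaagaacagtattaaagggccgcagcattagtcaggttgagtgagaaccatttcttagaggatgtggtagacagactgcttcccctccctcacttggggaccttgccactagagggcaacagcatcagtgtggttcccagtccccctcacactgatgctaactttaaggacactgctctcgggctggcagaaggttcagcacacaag
The S100a4 match runs from base -31 to base -26 before the start, and the S100a6 window held none. On either strand, TATAAA is found in 13.6% of the 32851 mouse promoters of 300 bases (250 before and 50 after the start).

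S100a6 (calcyclin) is enriched in fibroblasts and dividing cells and binds the protein Cacybp. Its log2 signal was 12.98, 13.36, 13.13 and 13.44 in control hearts, 13.79, 13.26, 13.501 and 13.65 in TrbE10 hearts, and 13.79, 13.52, 13.85 and 13.83 in TrbE14 hearts. As with S100a4, the TrbE14 and control hearts did not overlap, and TrbE10 hearts lay between and across them. The log2 difference was 0.33 ± 0.14 SE in TrbE10 (adjusted p = 0.278) and 0.52 ± 0.14 SE in TrbE14 hearts (fold 1.44, adjusted p = 0.142), so that neither passed the test. S100a4 and S100a6 were 2 of 10 S100 genes without overlap between TrbE14 and control, a state reached by 10.1% of all genes. Between TrbE10 and control 0 of 10 were without overlap, against 10.6% of all genes.

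After the group means had been removed, S100a4 and S100a6 correlated with a Pearson's r of 0.88 over the 12 hearts (Spearman's rho 0.82). The exact permutation p, from 13824 orders within groups, was 0.00116, or 0.0260 after adjustment over the 45 pairs of S100 genes, and for rho 0.00391, or 0.0627 adjusted. Without the 2 hearts farthest from the S100a4 median r was 0.89 (adjusted p = 0.0521, exact), and it was 0.83 within the 8 hearts of the shared slide (adjusted p = 0.469, exact). After scaling to the 75th percentile the same pair had an r of 0.88 and an adjusted exact p of 0.104.

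Markers of other cell types differed between the same groups. The summed signal of 12 fibroblast genes, all measured, was 82000 to 94090 in control, 104800 to 124400 in TrbE10 and 111100 to 129500 in TrbE14 hearts. Of these, 2 rose in TrbE10 hearts, the matrix proteoglycan Dcn (log2 difference 0.39, adjusted p = 0.0377) and the intermediate filament Vim (0.59, adjusted p = 0.0477), and 1 rose in TrbE14 hearts, Dcn (0.50, adjusted p = 0.0190). SAM called Dcn and Tcf21 in both mutants, Col1a2 and Col3a1 as well in TrbE10, and not Vim, and 9 and 7 of the 12 genes were at an unadjusted p under 0.05. The median difference of the list was 0.48 and 0.43. Dcn alone gave 58.5% to 66.7% of the summed signal. Without it the sums were 29800 to 38370 in control, 39410 to 50910 in TrbE10 and 37030 to 48540 in TrbE14 hearts, where the last range overlaps the first.

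Of 15 macrophage gene symbols, with Emr1 and Adgre1 naming the same gene, 14 were on the array and all 14 were measured. They had summed signals of 12610 to 15270 in control, 22830 to 29230 in TrbE10 and 21220 to 22360 in TrbE14 hearts. In TrbE10 hearts 6 of 14 rose, among them Vsig4 (log2 difference 4.09), Csf1r (1.14), C1qc (0.84) and Fcgr1, which was not well above background on any control array. Fcgr1 lies within 5 Mb of the Gja5 probe on chromosome 3, so genotype around Gja5 and Nkx2-5 deletion cannot be told apart for it. In TrbE14 hearts Vsig4 (3.82) and Csf1r (0.92) rose. SAM called 6 genes in TrbE10 and 3 in TrbE14 hearts, the third being C1qc (0.50, limma adjusted p = 0.170), and 10 and 5 were at an unadjusted p under 0.05. The list's median difference was 0.61 in TrbE10 and 0.30 in TrbE14 hearts. The 8 endothelial genes summed to 13990 to 17740, 21150 to 27390 and 21840 to 26850. Among them Vwf rose in both mutants (1.09 and 1.03, by limma and SAM). Eng differed by 0.71 in TrbE10 and 0.72 in TrbE14 hearts, and was called by limma in the former (adjusted p = 0.0412 and 0.0642) and by SAM in the latter. At an unadjusted p under 0.05 were 3 and 4 of the 8. What part these cells have in the S100a4 difference was not tested.

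**Figure D2:**
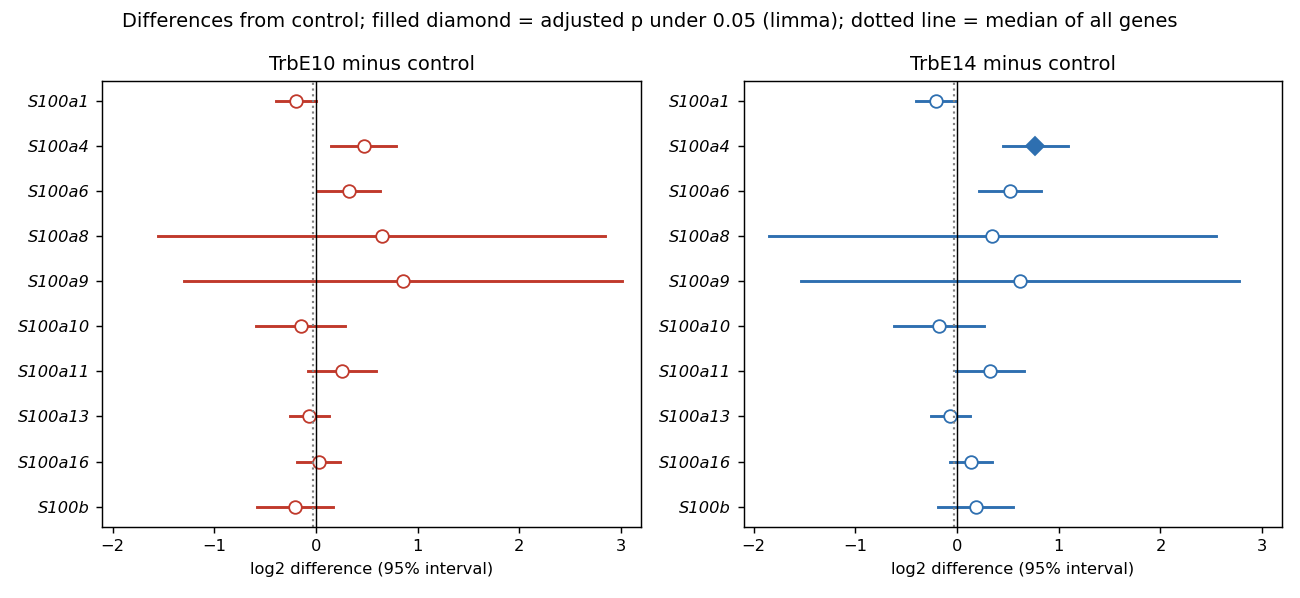
Log2 difference of each mutant group from control for the 10 S100 genes, with 95% intervals from limma, where the filled diamond marks an adjusted p under 0.05 and the dotted line the median of all genes. S100a4 in TrbE14 hearts is the single filled point, and the intervals of S100a8 and S100a9 span more than 4 log2 units.

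S100a8 and S100a9 form calprotectin, an alarm protein that neutrophils and monocytes hold in large amounts and release at sites of injury. Their promoters are shown because no other pair of S100 genes followed each other so closely, again as 250 bases before the RefSeq start in GRCm38.p6 with motif matches in capitals (TATAAA, and the C/EBP-type letters TTGCNNAA).
S100a8, chr3:90668821-90669070, plus strand: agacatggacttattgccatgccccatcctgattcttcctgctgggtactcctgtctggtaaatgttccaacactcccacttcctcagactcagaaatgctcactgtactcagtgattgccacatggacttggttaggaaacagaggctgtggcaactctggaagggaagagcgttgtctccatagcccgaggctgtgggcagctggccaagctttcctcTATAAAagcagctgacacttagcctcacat
S100a9, chr3:90695722-90695971, minus strand: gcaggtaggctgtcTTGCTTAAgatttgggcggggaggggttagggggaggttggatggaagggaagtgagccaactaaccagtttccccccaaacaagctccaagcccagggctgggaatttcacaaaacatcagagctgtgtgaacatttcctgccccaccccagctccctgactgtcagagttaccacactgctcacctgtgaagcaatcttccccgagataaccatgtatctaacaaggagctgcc
In S100a8 the TATA letters run from base -30 to base -25. In S100a9 they run from base 1 to base 6 after the annotated start and so lie just past the printed stretch. TTGCNNAA, which 10.8% of all promoters hold on either strand, is present in S100a9 from base -236 to base -229 and absent from the S100a8 window. The Nkx2-5 letters TNAAGTG, searched on both strands, were found in the windows of 0 of the 9 S100 genes that have an entry, against 3790 of the 32851 promoters.

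S100a9 had log2 signals of 10.23, 8.39, 5.64 and 8.90 in control hearts, 8.17, 8.56, 9.27 and 10.56 in TrbE10 hearts, and 7.51, 7.77, 9.68 and 10.67 in TrbE14 hearts. S100a8 had 7.59, 5.42, 3.12 and 5.81, then 5.34, 5.63, 5.78 and 7.76, then 3.93, 5.10, 6.48 and 7.82. In each group at least 1 heart was high in both genes. The groups overlapped at the upper end, while the lowest control heart lay below every mutant heart in both genes. Within groups, S100a9 spanned 24.2-fold among controls, 5.24-fold among TrbE10 and 8.93-fold among TrbE14 hearts. The pooled SD within groups was 1.54 for S100a9 and 1.58 for S100a8, both above that of 99.7% of all genes, whereas S100a4 had an SD above 51.2% and S100a1 above 12.99% of them. On 1 control and 1 TrbE14 array S100a8 was not well above background, namely control replicate 3 and TrbE14 replicate 1.

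With this spread, group differences could be neither called nor bounded closely. The log2 difference of S100a9 from control was 0.85 ± 0.98 SE in TrbE10 (95% interval -1.30 to 3.01, adjusted p = 0.716) and 0.62 ± 0.98 in TrbE14 hearts (-1.54 to 2.77, adjusted p = 0.796). For S100a8 it was 0.65 ± 1.00 (-1.55 to 2.84) and 0.35 ± 1.00 (-1.85 to 2.55). The signs rested on single hearts. Without control replicate 3, the differences were -0.14 and -0.44 for S100a8 and -0.032 and -0.27 for S100a9, and without TrbE14 replicate 4 that of S100a8 in TrbE14 hearts was -0.31. With sex as a covariate, the TrbE14 differences were -0.68 for S100a8 and -0.22 for S100a9.

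Across hearts the calprotectin genes moved as a pair. With group means removed, r was 0.98 and rho 0.99 over 12 hearts. The exact permutation p was 7.23e-05 for each, the smallest that 13824 orders can give, and 0.00326 after adjustment over 45 pairs. Without the 2 hearts farthest from the S100a8 median r was 0.96 (exact p = 0.00116, adjusted 0.0521), and within the 8 hearts of the shared slide it was 0.98 (exact p = 0.00174, the smallest that 576 orders allow, and 0.0781 adjusted). Out of 18014 genes ranked by likeness to S100a8, S100a9 came first, followed by 4833420G11Rik (0.95), and S100a8 came first for S100a9, where Hnrnph2 had 0.94.

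**Figure D3:**
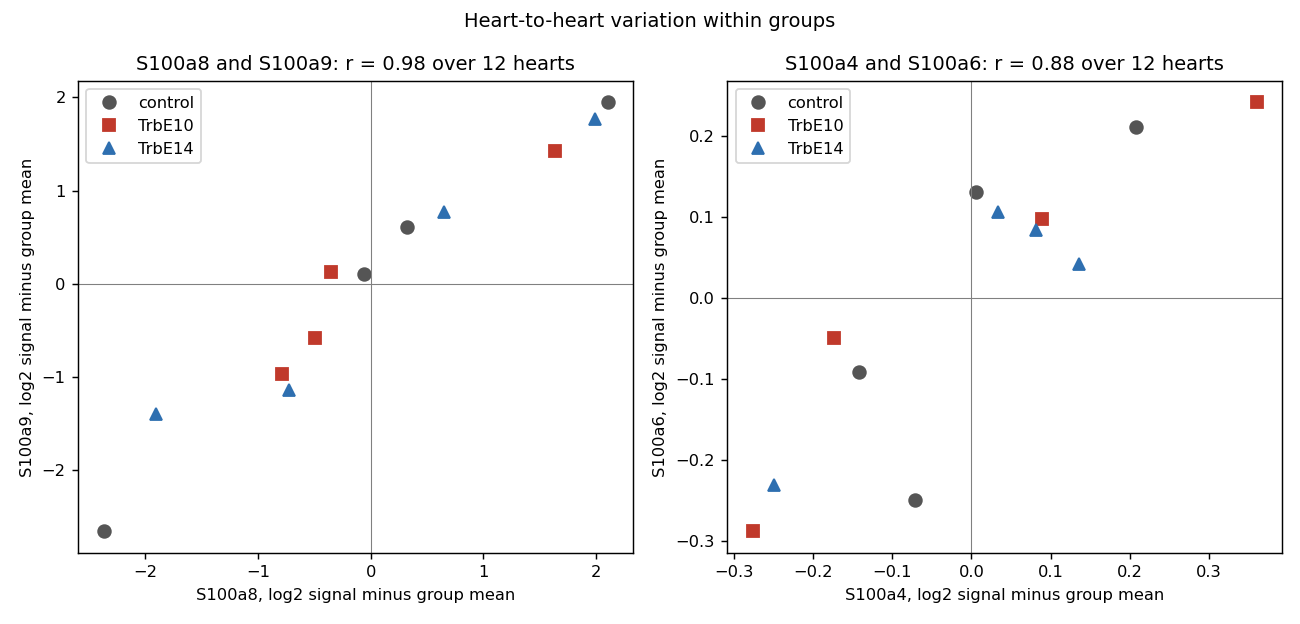
Log2 signal of each of 12 hearts minus its group mean, for S100a8 against S100a9 and for S100a4 against S100a6, with groups marked by shape and colour. Each pair falls near a rising line (r of 0.98 and 0.88), and the axes of the first pair span a wider range.

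Of 15 neutrophil genes, 6 were well above background on no array (Mpo, Ngp, Ltf, Mmp8, Mmp9 and Il1r2), and 5 had a probe that passed the filter, among which limma called 0 in either mutant (2 at an unadjusted p under 0.05 in each). SAM called 1 in TrbE10 hearts, the iron-scavenging protein Lcn2, named after its values were seen, with log2 differences of 2.43 in TrbE10 (limma adjusted p = 0.0917) and, for TrbE14, 2.08 (adjusted p = 0.217). Ly6g, a surface marker of neutrophils, differed by -0.15 in TrbE10 and -0.54 in TrbE14 hearts (adjusted p = 0.706 and 0.222), and the granule protease Elane by 0.16 and 0.15 (adjusted p = 0.524 and 0.557). The summed signal of the 5 genes, of which the Csf3r probe gave 76.6% to 97.8%, was 28560 to 36860 in control, 33560 to 39830 in TrbE10 and 36820 to 41100 in TrbE14 hearts. Without Csf3r the sums were 791.5 to 1746 in control, 1664 to 9307 in TrbE10 and 1628 to 8936 in TrbE14 hearts. Both mutant ranges overlap the control range. Retnlg, a resistin-like gene of neutrophils that is named here after its values were seen, was well above background on 5 of 12 arrays. These were the 5 hearts with the highest S100a9, at 9.27 to 10.67, while the other 7 hearts had 5.64 to 8.90. The same 5 hearts had S100a8 signals of 5.78 to 7.82, against 3.12 to 5.81 in the others. They were control replicate 1, TrbE10 replicates 3 and 4, and TrbE14 replicates 3 and 4, all male by Y-linked signal except TrbE10 replicate 3. Among the other hearts, TrbE10 replicate 2 and TrbE14 replicate 2 were male. How S100a8 and S100a9 relate to sex was not tested. All 5 neutrophil genes that passed the filter overlapped between the 5 hearts with Retnlg and the others. Ly6g was 5.11 to 6.02 in the 5 hearts and 5.51 to 6.30 in the others, and Elane 6.87 to 7.13 and 6.62 to 7.26. Camp was 4.76 to 5.94 and 4.96 to 5.65, Csf3r 14.76 to 15.03 and 14.96 to 15.12, and Lcn2 9.19 to 13.14 and 9.17 to 12.17. The highest heart was among the 5 for Camp and Lcn2, and among the others for Ly6g, Elane and Csf3r. Prtn3, Ctsg and Cxcr2, also named after their values were seen, were well above background on 4, 2 and 1 arrays. Prtn3 was highest in control replicate 4 (5.134) and Ctsg in control replicate 2 (5.025), both among the others. Cxcr2 was highest in TrbE14 replicate 3 (5.765), among the 5. Prtn3 was 4.36 in control replicate 1 and 4.32 in TrbE10 replicate 4, both among the 5. How far the number of leukocytes in a heart sets these levels was not tested. Of 9 monocyte gene symbols, with Chi3l3 and Chil3 naming the same gene, 7 were on the array and 4 were measured. Limma and SAM called 0 in either mutant (2 and 1 at an unadjusted p under 0.05). Their median differences were 0.60 and 0.28, and all 4 were positive in each mutant. One of the 4, Chi3l3, was well above background on 0 control, 2 TrbE10 and 3 TrbE14 arrays. It passed the filter through the TrbE14 group alone, which favours a positive difference there. Chi3l3 also lies 9.09 Mb from the Gja5 probe, so genotype around Gja5 and Nkx2-5 deletion cannot be told apart for it. The summed signals of the 4 genes were 2041 to 2484, 2147 to 2994 and 2093 to 2844, of which the brightest, F13a1, gave 85% to 93.6%. Without it the sums were 141.6 to 216.2, 192.2 to 321.5 and 187.9 to 325.1.

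S100a1 is the main S100 protein of cardiomyocytes and is known to act on the ryanodine receptor (Ryr2), the calcium pump SERCA2 (Atp2a2) and titin. Its log2 signal was 14.14, 14.36, 14.36 and 14.25 in control hearts, 14.08, 14.03, 14.16 and 14.04 in TrbE10 hearts, and 13.94, 13.96, 14.21 and 14.15 in TrbE14 hearts. The mutants were mostly at the lower end, and the lowest control heart lay within the range of both mutant groups. S100a1 differed from control by -0.20 ± 0.088 SE in TrbE10 (fold 0.872, adjusted p = 0.299) and by -0.21 ± 0.088 SE in TrbE14 hearts (fold 0.863, adjusted p = 0.334). A second S100a1 probe gave -0.32 ± 0.14 (adjusted p = 0.290) and -0.37 ± 0.14 (adjusted p = 0.284). All 4 values have the same sign, and none passed the test.

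The 6 cardiac targets of S100a1 followed here were all measured, and limma and SAM called 0 of them in either mutant (3 in TrbE10 and 0 in TrbE14 hearts at an unadjusted p under 0.05). Ryr2 differed by -0.41 in TrbE10 (adjusted p = 0.0918) and in the TrbE14 group -0.16 (adjusted p = 0.529), and Atp2a2 by -0.32 (adjusted p = 0.120) and -0.083 (adjusted p = 0.711). The median of the 6 was -0.17 in TrbE10 and -0.047 in TrbE14 hearts. Their summed signal was 161100 to 177600 in control, 140600 to 149800 in TrbE10 and 154800 to 172800 in TrbE14 hearts, so that the TrbE10 hearts, which share a slide of their own, lay below all others. Without titin (Ttn), the brightest of the 6, the ranges overlapped, at 106700 to 125000, 93370 to 108800 and 106700 to 121100.

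S100a13 helps FGF1 to leave cells without a signal peptide. Its RefSeq start lies on the opposite strand to that of S100a1 and close by, so that the genes run away from each other out of a common stretch. The 104 bases between the starts are shown because they belong to the promoters of both, read on the strand of S100a13 (GRCm38.p6), and hold 58.7% G and C.
S100a1 and S100a13, chr3:90514331-90514434, plus strand: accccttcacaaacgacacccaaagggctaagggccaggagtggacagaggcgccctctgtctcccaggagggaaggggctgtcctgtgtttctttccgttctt
S100a13 signals were 11.82, 11.99, 11.81 and 11.88 in control, 12.002, 11.68, 11.70 and 11.85 in TrbE10, and 11.88, 11.83, 11.76 and 11.76 in TrbE14 hearts. All 3 groups overlapped within a range of 0.32 log2 units. The differences from control were -0.064 (95% interval -0.26 to 0.13) and -0.067 (-0.26 to 0.13). S100a1 and S100a13 had an r of -0.13 over the 12 hearts (rho -0.03, exact permutation p = 0.640 and 0.915). Adjusted over the 45 pairs these were 0.943 and 0.944, and without the 2 hearts farthest from the S100a1 median r was -0.28.

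S100a10 (p11) is the partner of annexin A2 at the cell surface, where the complex binds plasminogen, and unlike its relatives it does not bind calcium. It has no promoter entry. Its signal was 10.33, 9.98, 9.41 and 9.70 in control, 9.71, 9.37, 9.76 and 9.98 in TrbE10, and 9.72, 9.32, 9.81 and 9.84 in TrbE14 hearts. The groups overlapped in part, with 2 control hearts above every mutant heart and the lowest heart of each mutant group below every control, and with differences of -0.15 ± 0.20 SE (adjusted p = 0.757) and -0.18 ± 0.20 SE (adjusted p = 0.704). Without control replicate 1, the difference in TrbE10 hearts was 0.0087.

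S100a11 binds annexin A1. It had signals of 10.12, 10.18, 9.87 and 10.03 in control, 10.52, 9.92, 10.49 and 10.30 in TrbE10, and 10.37, 10.10, 10.67 and 10.35 in TrbE14 hearts. In each mutant group 3 of 4 hearts were above all controls, and 1 was among them. The differences were 0.26 ± 0.15 SE (fold 1.19, adjusted p = 0.437) and 0.32 ± 0.15 SE (fold 1.25, adjusted p = 0.384).

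Among 16 annexins and other proteins that S100 dimers bind, 15 were measured and limma called 0 in either mutant (3 in each at an unadjusted p under 0.05), with medians of 0.086 and 0.058. SAM called 1 in TrbE14 hearts, the phospholipid-binding annexin Anxa5, named after its values were seen (log2 difference 0.31, limma adjusted p = 0.0628). Anxa2 differed by 0.31 in TrbE10 (adjusted p = 0.339) and in the TrbE14 group 0.30 (adjusted p = 0.402), and Anxa1 by 0.67 (adjusted p = 0.122) and 0.51 (adjusted p = 0.295). The receptor and plasminogen list held 12 genes, of which 9 were measured and 0 called by limma or SAM (3 and 2 at an unadjusted p under 0.05), with medians of 0.12 and 0.25. Ager, the receptor RAGE, did not pass the filter. Tlr4 differed by 0.12 (adjusted p = 0.786) and -0.010 (adjusted p = 0.985).

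S100a16 is widely expressed and is linked to fat cell formation. Its signals were 12.63, 12.56, 12.56 and 12.54 in control, 12.80, 12.72, 12.45 and 12.44 in TrbE10, and 12.71, 12.74, 12.80 and 12.59 in TrbE14 hearts. The TrbE10 hearts lay to either side of the controls, and 3 of 4 TrbE14 hearts were above them. The difference from control was 0.027 (95% interval -0.18 to 0.24) in TrbE10 and 0.14 (-0.071 to 0.35) in TrbE14 hearts. In TrbE10 its sign was not fixed, since it was -0.075 after scaling to the 75th percentile, -0.038 without TrbE10 replicate 1 and -0.012 without TrbE10 replicate 2, and another probe gave -0.044. On that probe, the TrbE14 and control hearts did not overlap (log2 difference 0.074, adjusted p = 0.710). Adipocyte genes, of which 6 of 7 were measured and 0 called by limma or SAM (2 and 0 at an unadjusted p under 0.05), had medians of -1.31 and -0.34, with Adipoq at -1.35 (adjusted p = 0.278) and -0.42 (adjusted p = 0.764). Adipoq, Plin1, Retn and Cidec were each well above background on only 3 of 4 TrbE10 arrays. Fabp4, which gave 93.7% to 99.7% of the list's signal, was the 1 gene with positive differences (0.26 and 0.35).

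S100b, the only member on another chromosome (10), is a glial protein that is also found in Schwann cells and in stressed cardiomyocytes. It had signals of 7.99, 7.96, 7.35 and 7.92 in control, 7.50, 7.52, 7.50 and 7.87 in TrbE10, and 7.69, 8.18, 8.20 and 7.88 in TrbE14 hearts. In control 1 heart was far below the rest, and in TrbE10 1 was far above. The differences from control were -0.21 ± 0.17 SE (adjusted p = 0.588) and 0.18 ± 0.17 SE (adjusted p = 0.640). Without control replicate 3, the low heart, they were -0.36 and 0.032, and with sex as a covariate -0.27 and 0.048. Without TrbE14 replicates 1, 2 and 3 the TrbE14 difference was 0.28, 0.12 and 0.11. Of 11 Schwann cell genes, 9 were measured and 0 called by limma or SAM (2 in each mutant at an unadjusted p under 0.05), with medians of 0.18 and 0.22.

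When the mutants were compared with each other, limma and SAM called 0 of 10 S100 genes, and limma called 0% of all genes. S100b was the one S100 gene at an unadjusted p under 0.05, beside 5.96% of all genes, with TrbE10 below TrbE14 hearts by a log2 difference of -0.39 ± 0.17 SE (adjusted p = 0.861). For S100a4 the difference was -0.30 (95% interval -0.62 to 0.022, adjusted p = 0.886), so that its differences from control in the mutants were not shown to be unequal. No S100 gene was without overlap between the mutants (0 of 10, against 3.37% of all genes).

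Over all 45 pairs, r was positive for 33 and negative for 12, with a median of 0.18. At an unadjusted exact p under 0.05 were 8 pairs, and 2 passed after adjustment, S100a8 with S100a9 and S100a4 with S100a6. The next highest r values joined S100a10 to S100a9 (0.79, rho 0.85, exact p = 0.0105 and 0.00470) and to S100a8 (0.74, rho 0.83, exact p = 0.0197 and 0.00557). Their adjusted p was 0.157 and 0.177 for r and 0.0627 for each rho. Without the 2 hearts farthest from the median, r was 0.67 and 0.59, and within the shared slide 0.81 and 0.75.

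**Figure D4:**
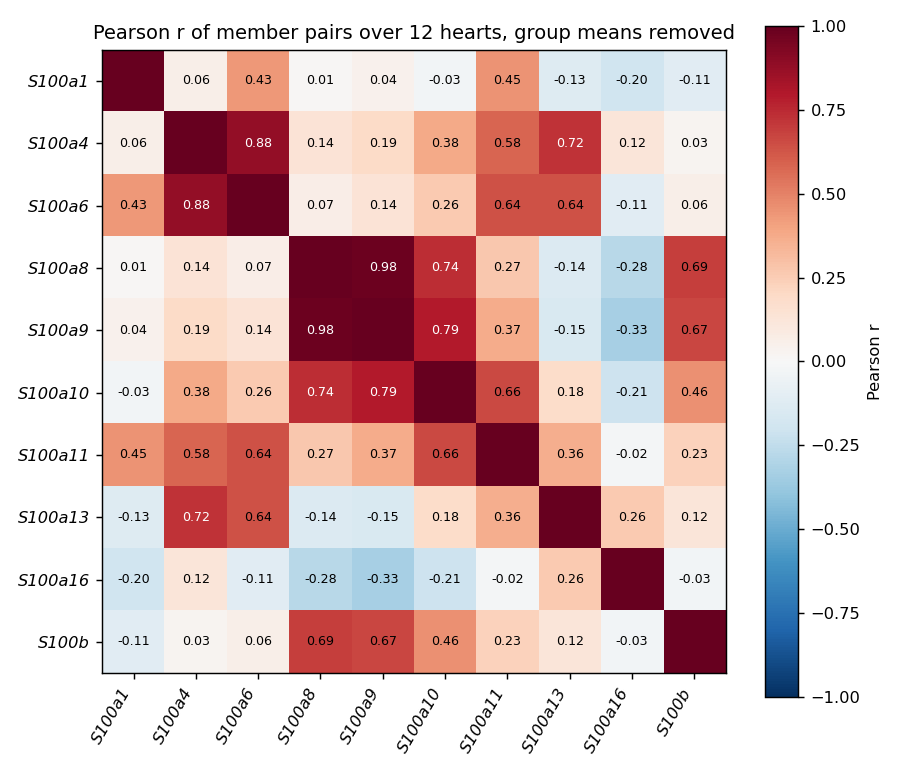
Pearson's r of each pair of the 10 S100 genes over 12 hearts after group means were removed, with colour from blue (-1) to red (1). S100a8 and S100a9 (0.98) and S100a4 and S100a6 (0.88) stand out, and S100a1 and S100a16 have r values of 0.45 or less with every other member.

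Among all genes with a kept probe, the ones whose signal followed each member most closely from heart to heart were ranked by r over the same 12 group-centred values, as a description. S100a1 was followed best by Bmp6 (0.95), with Aldh1l1 at 0.93. S100a4 was followed by Zfp783 (0.90), Zmat2 (0.90) and Rps14 (0.89), S100a6 by Galk1 (0.96) and Antxr1 (0.88), and S100a10 by Sf3b1 (0.96), Cebpd (0.94) and BB166591 (0.92). S100a11 had Rpl3 (0.93), S100a13 had Fancc (0.92) and Sgce (0.91), S100a16 had Ncoa5 (0.92), and S100b had Mcm2 (0.93) and Odf3 (0.92). Each member had at least 1 gene with an r of 0.90 or more among the 18014 ranked. How high the best r of so many genes over 12 hearts runs by chance was not computed.

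Apart from S100b, the members lie on chromosome 3 near Gja5, the site of the Cre allele that mutants carry and controls do not. By the array's probe coordinates (build mm9), 7 of them lie 6.36 to 6.54 Mb from the Gja5 probe, and S100a10 and S100a11 lie 3.49 and 3.53 Mb from it. Genotype at and around Gja5 and Nkx2-5 deletion cannot be told apart for these genes. Of 319 genes within 10 Mb of Gja5, S100 genes included, 11 (3.45%) were called in TrbE10 and 5 (1.57%) in TrbE14 hearts. The TrbE14 calls include S100a4 itself, and the calls in each mutant include entries without a gene name. On the rest of chromosome 3 it was 2.84% and 1.42% of 563 genes, and on other chromosomes 2.11% and 0.725% of 16960. Within 5 Mb the shares were 4.58% and 1.31% of 153 genes. The median log2 difference of genes within 10 Mb was -0.017 and -0.027. Gja5 itself differed by -0.64 in TrbE10 (adjusted p = 0.410) and in the TrbE14 group -0.47 (adjusted p = 0.572).

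**Figure D5:**
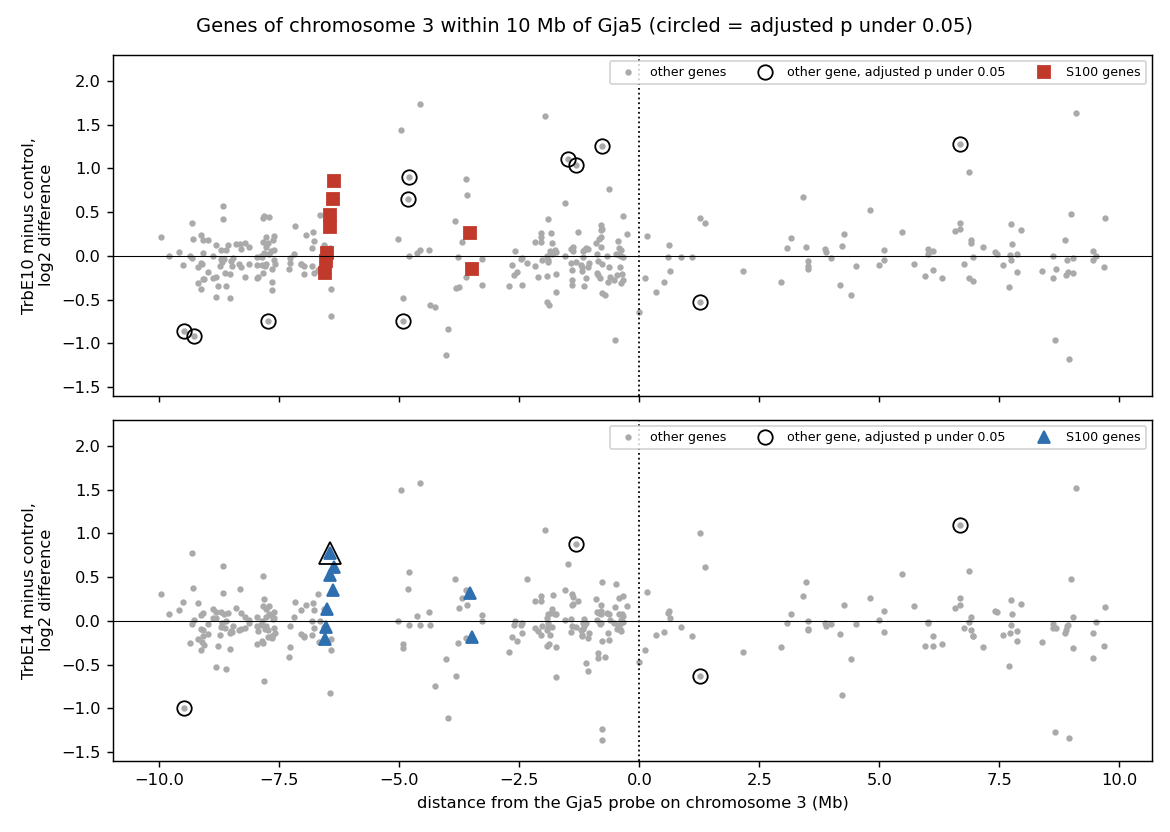
Log2 difference from control in TrbE10 (top) and TrbE14 (bottom) hearts of genes within 10 Mb of the Gja5 probe on chromosome 3, against their distance in Mb, with S100 genes in colour and genes with any probe at an adjusted p under 0.05 circled. The 9 S100 genes of chromosome 3 lie on one side of Gja5, spread above and below 0, and S100a4 in TrbE14 is the only one circled.

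Of 15 further genes (other S100 genes, genes of the fused type and the S100P-binding protein gene S100pbp), 4 passed the filter. S100pbp, Tchh and Tchhl1 were well above background on 12 of 12 arrays and S100a3 on 8, and limma and SAM called 0 in either mutant (1 in each at an unadjusted p under 0.05). Erythroid genes, measured in 5 of 7, and platelet genes, measured in 2 of 5, had 0 called by either tool and 0 at an unadjusted p under 0.05, with Hbb-b1 differing by 0.29 (adjusted p = 0.815) and 0.22 (adjusted p = 0.859).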

How the data were processed

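The authors deposited, for each array, the intensity of every spot from Agilent Feature Extraction 10.5 (version as in the submitters' processing notes), background-subtracted within the array and unscaled between arrays, and their own log2 table, quantile normalized and restricted to probes over background, which served as an alternative. Here, processed signals were log2-transformed in R 4.3.3. Control spots were removed, the 93 to 131 spots per array marked as outliers were set to missing, and values were quantile normalized with limma 3.58.1, as in the study's methods. Replicate spots were averaged per probe, and probes had to be well above background on 3 of 4 arrays (75%) in any group. No spot was saturated (0 on every array). The 75th percentile of the signal was 194.6 to 249.5 in control, 206.7 to 222.7 in TrbE10 and 200.3 to 246.5 in TrbE14 arrays. The number of arrays limits precision, and signals of different probes were not compared as levels.

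A linear model with a mean per group was fitted with limma (9 residual degrees of freedom, 2.19 prior), with Benjamini-Hochberg adjustment over all kept probes. A gene was called when any of its probes had an adjusted p under 0.05, and its values are those of its brightest kept probe. The model was tested on simulated data. Single genes were also tested by exact permutation of 70 label orders, and pairs by permutation within groups in Python 3.11.15 with numpy 2.4.6 and scipy 1.17.1. Figures used matplotlib 3.10.9. Promoters came from RefSeq (GRCm38.p6), which held 9 of the 10 members. Each array held 1 mouse, and litters are not given, so p-values measure the spread between these mice.

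Named were all members, Nkx2-5 and Gja5, of each list the called genes (at most 4) or its defining genes (1 is not reported here), and the 3 genes most like each member, unnamed probes left out. Members and lists were chosen with earlier results of these data known. Results were recomputed with 75th percentile scaling, normexp with an offset of 50, filters on 9 of 12 arrays or none, the authors' normalized values, fits of 2 groups, the replicate block, SAM at 5%, sex as a covariate, and each array left out. The network and ontology analyses and the physiological data were not analysed here.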

Additional observations from a re-analysis of the deposited data

Results flagged for a closer look

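Of 30 sets of 4 hearts (10 S100 genes in 3 groups), 2 held a heart far from the rest by Dixon's test, which by chance marks about 1 set in 20. Both concerned S100b. The log2 signal of control replicate 3 was 7.35, while the other controls had 7.92 to 7.99. That of TrbE10 replicate 4 was 7.87, while the others of its group had 7.50 to 7.52.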

How the results depend on the processing

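S100a4 in TrbE14 hearts was the one S100 call that depended on the processing. It was present (1 of 10) with 75th percentile scaling, normexp, the 9-of-12 filter, the authors' values, 2-group fits, the replicate block, SAM and sex as a covariate, and absent (0 of 10) with no filter. Leaving out each array in turn gave 0 to 1 calls. In TrbE10 hearts and between the mutants, every alternative gave 0. Pairs called numbered 1 with 75th percentile scaling, 0 without the 2 farthest arrays and 0 within the 8 arrays of 1 slide, against 2; the shared slide holds fewer arrays, which raises the smallest p possible.

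Same-numbered hearts had correlations of deviations from -0.242 to 0.476 over 12 pairs. These were not set against hearts of different number, so whether replicate numbers pair the samples was not tested. The main fit treated the samples as unpaired. With the replicate block, S100a4 in TrbE14 hearts had an adjusted p of 0.0420, 1 S100 gene was called, and all genes called were 134 in TrbE14, 294 in TrbE10 and 1 between mutants.

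Signs turned for differences that were not called. In TrbE10 hearts S100a16 was -0.075 with 75th percentile scaling, and in TrbE14 hearts S100a8 was -0.68 and S100a9 -0.22 with sex as a covariate. Between the mutants S100a1 was -0.087 with normexp, S100a8 -0.024 with the authors' values, and S100a13 -0.019 with 75th percentile scaling and -0.019 with sex as a covariate. With arrays left out, TrbE10 differences ranged from -0.14 to 1.35 for S100a8, -0.032 to 1.501 for S100a9, -0.30 to 0.0087 for S100a10 and -0.038 to 0.080 for S100a16. TrbE14 differences ranged from -0.44 to 1.05 for S100a8 and -0.27 to 1.27 for S100a9. Between mutants the ranges were -0.026 to 0.063 for S100a1, -0.34 to 0.96 for S100a8, -0.24 to 0.82 for S100a9, -0.088 to 0.14 for S100a10, -0.16 to 0.063 for S100a11 and -0.062 to 0.047 for S100a13. The cause was not tested.

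Over all genes, 387 were called in TrbE10 hearts, 183 with no filter, 246 in the 2-group fit, 483 by SAM, and 149 (without TrbE10 replicate 3) to 650 (without TrbE10 replicate 2) with arrays left out. In TrbE14 hearts 137 were called, 223 with normexp, 299 by SAM, and 76 (without control replicate 3) to 174 (without TrbE10 replicate 2) with arrays left out. Between mutants 0 were called, 1 with 75th percentile scaling, 2 with no filter, 2 by SAM, and 0 to 1 with arrays left out. Dim signals limit S100a8, which was not well above background on 2 arrays.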
